A study of Rattus norvegicus with 20 samples.

Results

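Genes that the heart muscle is known to raise under mechanical load were followed through the left ventricles of hypertensive rats given Maresin 1 (MaR1) or vehicle. The group holds 10 of the 30560 genes in the deposited expression table, taken by symbol with 1 row each: Ankrd1, Acta1, Actc1, Xirp1, Xirp2, Rcan1, Fhl1, Csrp3, Lmcd1 and Nmrk2. Most encode proteins of the sarcomere, the contractile unit of muscle, or of the Z-disc and intercalated disc, where sarcomeres and cells are anchored to each other. A heart that works against high pressure stretches these anchoring sites, and stretch sensors there, calcineurin with its NFAT transcription factors, and serum response factor with MEF2 switch on genes for thicker myocytes and for fetal protein isoforms. Transcripts such as Ankrd1 and the skeletal actin Acta1 are for this reason widely used as markers of cardiac load in rodents.

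Messenger RNA was sequenced from the left ventricle and the kidney cortex of 10 male hypertensive rats, labelled wild type with no strain named, which received a blood pressure telemeter at 8 weeks of age. All of them, controls included, ate a 4% NaCl diet for 3 weeks. Over those 3 weeks a subcutaneous minipump gave 5 rats (RB035 to RB039) MaR1, a lipid mediator derived from an omega-3 fatty acid, in a daily dose that reached 1.3 µg/kg, and 5 rats (RB030 to RB034) vehicle. There was no group on a normal salt diet and no normotensive group, so a response to load itself cannot be read from these libraries. Replicates are separate animals.

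Heart libraries held 21543513 to 25054197 assigned fragments with MaR1 and 24239346 to 30342034 with vehicle (exact permutation p = 0.0476, and 0.333 when adjusted over 14 measures). The organ labels matched the contents: 8 ventricular myocyte markers summed to 8918 to 16182 FPKM in hearts and to 0.889 to 1.88 FPKM in kidneys. FPKM is a level scaled to gene length and to a size set for each library, which here differed from its assigned fragments. Of the hearts, 5 also carried transcripts of atrial muscle. Myl7, the atrial myosin light chain, stood at 151 to 784 FPKM in 2 MaR1 hearts (RB035, RB038) and 3 vehicle hearts (RB031, RB033, RB034), against 0.163 to 1.65 FPKM in the remaining 5, and each heart comparison of the 10 genes was also computed without those hearts or with their presence as a term. Skeletal muscle markers, 9 of 11 found in the table, summed to only 2.78 to 4.86 FPKM in hearts. Kidney proximal tubule markers, all 7 found, summed to 32.2 ± 18.8 FPKM in MaR1 hearts and 6.48 ± 4.07 FPKM in vehicle hearts (SD, n = 5 each; exact permutation p = 0.0159, adjusted p = 0.222), and their part in the results was not tested. In whole tissue, fewer cells of a type and less RNA per cell cannot be told apart.

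The start regions of 4 of the genes are shown because each holds a CArG box or a MEF2 box, the elements bound by serum response factor and by MEF2, or an M-CAT element. RefSeq start regions on build GRCr8 were found for 8 of the 10 genes; Ankrd1 and Csrp3 were not among them. The table lists 3 regions for Xirp1 and 2 for Fhl1, of which 1 each is shown. Each line gives the 250 bases before the transcription start, 5′ to 3′, for Acta1 (chr19:68784195-68784444, minus strand), Fhl1 (chrX:139638246-139638495, plus strand), Xirp1 (chr8:128635012-128635261, minus strand) and Xirp2 (chr3:72533936-72534185, plus strand), with capitals for the CArG box, M-CAT element (CATTCC) or MEF2 box found.
Acta1: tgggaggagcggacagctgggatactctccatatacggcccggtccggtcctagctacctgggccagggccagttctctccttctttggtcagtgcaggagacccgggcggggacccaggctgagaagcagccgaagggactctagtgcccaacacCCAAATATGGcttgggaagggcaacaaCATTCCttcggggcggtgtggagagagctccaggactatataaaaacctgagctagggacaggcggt
Fhl1: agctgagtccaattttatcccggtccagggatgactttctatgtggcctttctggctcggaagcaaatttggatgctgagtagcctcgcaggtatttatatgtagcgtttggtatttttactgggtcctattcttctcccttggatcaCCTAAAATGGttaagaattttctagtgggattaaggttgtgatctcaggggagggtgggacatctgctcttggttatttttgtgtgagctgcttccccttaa
Xirp1: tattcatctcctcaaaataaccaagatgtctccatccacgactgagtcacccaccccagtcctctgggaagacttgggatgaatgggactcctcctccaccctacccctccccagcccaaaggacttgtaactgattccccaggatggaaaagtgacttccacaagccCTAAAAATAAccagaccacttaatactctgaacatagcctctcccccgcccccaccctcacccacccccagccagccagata
Xirp2: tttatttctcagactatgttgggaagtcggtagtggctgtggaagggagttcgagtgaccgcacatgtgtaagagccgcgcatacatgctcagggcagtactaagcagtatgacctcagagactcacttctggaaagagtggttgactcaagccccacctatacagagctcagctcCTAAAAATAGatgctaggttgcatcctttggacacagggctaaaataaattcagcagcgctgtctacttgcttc

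Acta1 held a CArG box, the element bound by serum response factor, at -94 to -85 from the start, and an M-CAT element, which TEAD factors bind, at -67 to -62. Fhl1 held a CArG box at -102 to -93, and the Xin genes each held a MEF2 box, at -82 to -73 in Xirp1 and at -74 to -65 in Xirp2. Over 27457 start regions of the same length, 1.5% held a CArG box, 3.07% a MEF2 box, 11.8% an M-CAT element and 56.7% the NFAT core (GGAAA), with both strands searched. Rcan1, a known NFAT target, held 2 NFAT cores, while Xirp1, Xirp2 and Lmcd1 held 1 each. None of the 4 motifs was found in this window of Actc1 or Nmrk2, and no match of one motif overlapped a match of another in these 8 windows. A match describes the letters only.

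In the hearts, the 10 genes covered a wide range of levels. Actc1, the actin of the adult heart, was highest at 6198 ± 967 FPKM (SD, n = 10), followed by Ankrd1 at 1503 ± 292, Acta1 at 1291 ± 384 and Csrp3 at 859.9 ± 79.1 FPKM. Rcan1 averaged 64.9 ± 16.5, Lmcd1 53.6 ± 4.15, Xirp2 41.7 ± 14.4, Fhl1 35.4 ± 7.62, Nmrk2 25.7 ± 5.93 and Xirp1 21.7 ± 4.96 FPKM. In this order the libraries of neighbouring genes overlapped except at 2 steps, between Actc1 and Ankrd1 and between Csrp3 and Rcan1. The spread between hearts also differed by gene: the coefficient of variation was 7.74% for Lmcd1 and 9.20% for Csrp3, against 34.5% for Xirp2 and 29.8% for Acta1.

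The main comparison asked whether the genes differ between MaR1 and vehicle hearts. None passed the test: limma on log2(FPKM + 0.5) called 0 of the 10, beside 0 of all 12237 genes tested (0% called), while 563 (4.6%) had an unadjusted p under 0.05 and limma voom likewise called 0. All 10 point estimates lay below 0, with a median log2 fold change of -0.08 against 0.01 over all genes, but 6 of the 10 were smaller than their standard errors, and several of the genes varied together from heart to heart. Xirp1 alone had an unadjusted p under 0.05. In 0 of the 10 did MaR1 and vehicle hearts separate without overlap, where 0.842% of all genes tested did so. The plot of differences shows each estimate with its interval.

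**Figure D1:**
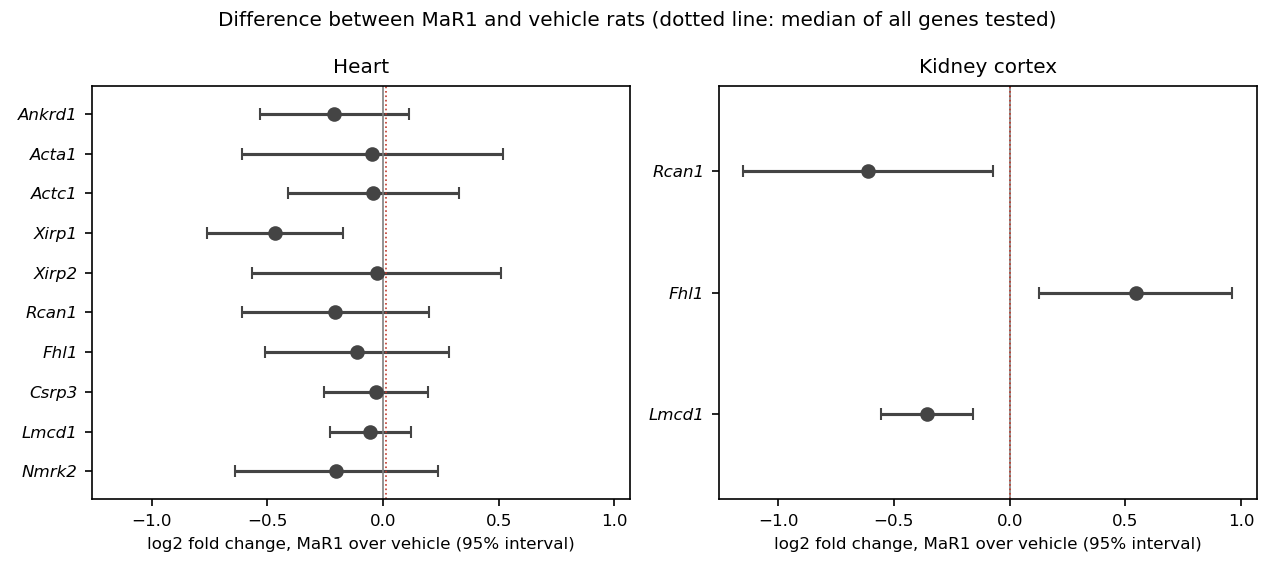
Log2 fold change of MaR1 over vehicle on log2(FPKM + 0.5), with the 95% interval from limma (n = 5 against 5), for the 10 genes in the heart (left) and the 3 that passed the filter in the kidney cortex (right); the dotted line is the median over all genes tested. In the heart the interval of Xirp1 (-0.76 to -0.17) lies below 0 and the others span 0, and no gene passed the adjusted threshold in either organ.

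The Xin proteins bind actin through repeated motifs and sit at the intercalated disc, the junction between heart cells. Xirp1 (chromosome 8, 119747419 to 119757349, minus strand, in the coordinates of the deposited table, which are used for all loci below) stood at 14.2, 19.6, 16.9, 19.2 and 20.9 FPKM in MaR1 hearts RB035 to RB039, and at 27.7, 28.2, 27.7, 18.6 and 24.5 FPKM in vehicle hearts RB030 to RB034. All MaR1 hearts lay below 4 of the 5 vehicle hearts, and the groups overlapped through vehicle heart RB033 alone. The means were 18.2 ± 2.61 and 25.3 ± 4.04 FPKM, a log2 fold change of -0.47 ± 0.13 (SE; unadjusted p = 0.0052, adjusted p = 0.897). Heart RB033 had the highest Myl7 (784 FPKM) and the second lowest ventricular marker sum (9528 FPKM). With atrial transcripts as a term the estimate was -0.51 (adjusted p = 0.588), and among the 5 hearts without them it was -0.53 (adjusted p = 0.374). Leaving out 1 animal moved it between -0.57 and -0.38.

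Its relative Xirp2 (chromosome 3, 51870092 to 52213091, plus strand) did not follow it. Xirp2 stood at 77.4, 34.8, 32.4, 35.7 and 31.0 FPKM in MaR1 hearts, in the same order of animals, and at 47.2, 33.7, 31.0, 51.8 and 41.8 FPKM in vehicle hearts. A single MaR1 heart, RB035, was above all others, and the remaining MaR1 hearts lay within the vehicle range or at its lower edge. The log2 fold change was -0.03 ± 0.24, with an interval of -0.57 to 0.51; it was 0.05 with atrial transcripts as a term and -0.27 to 0.06 when 1 animal was left out, so it had no stable sign. The ratio of Xirp1 to Xirp2 was 0.496 ± 0.184 in MaR1 hearts and 0.652 ± 0.215 in vehicle hearts.

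Ankrd1 encodes a transcriptional cofactor that moves between titin's stretch-sensing region and the nucleus (chromosome 1, 233815851 to 233834919, minus strand). Its level was 1532, 1241, 1346, 1421 and 1366 FPKM in MaR1 hearts, against 2278, 1299, 1459, 1541 and 1546 FPKM in vehicle hearts. Vehicle heart RB030 stood far above the rest, and without it the vehicle hearts ran over nearly the same range as the MaR1 hearts. The means were 1381 ± 107 and 1625 ± 379 FPKM (log2 fold change -0.21 ± 0.15, adjusted p = 1.00). Leaving out 1 animal moved the estimate between -0.28 and -0.08, and it was -0.47 among the 5 hearts without atrial transcripts (adjusted p = 0.720), where RB030 is 1 of 2 vehicle hearts.

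Rcan1, an inhibitor of calcineurin, lies on chromosome 11 (31622210 to 31702045, minus strand). It stood at 64.7, 53.3, 51.7, 70.9 and 56.1 FPKM in MaR1 hearts, and at 105, 49.1, 56.5, 75.7 and 66.4 FPKM in vehicle hearts. RB030 was again highest, and the lowest value was also a vehicle heart, RB031. The log2 fold change was -0.21 ± 0.18 with an interval of -0.61 to 0.20; without the hearts with atrial transcripts it was -0.51 (adjusted p = 0.720), a value that also rests on RB030. It was -0.05 without RB030 and -0.32 without RB031.

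The LIM domain proteins tie the Z-disc to signalling. Csrp3, or muscle LIM protein (chromosome 1, 98528068 to 98546653, minus strand), was among the most even of the genes. It stood at 892, 804, 812, 914 and 823 FPKM in MaR1 hearts and at 1029, 785, 767, 909 and 865 FPKM in vehicle hearts. The groups overlapped almost completely, at -0.03 ± 0.10 on the log2 scale with an interval of -0.26 to 0.19. Fhl1, which binds titin in the sarcomere (chromosome X, 134555479 to 134614928, plus strand), stood at 46.6, 26.9, 26.4, 38.2 and 32.4 FPKM in MaR1 hearts and at 43.7, 31.1, 27.4, 44.1 and 37.2 FPKM in vehicle hearts. The highest and the lowest Fhl1 were both MaR1 hearts, and the log2 fold change was -0.11 ± 0.18. Leaving out 1 animal moved it between -0.23 (without RB035) and -0.03 (without RB037), and it was -0.28 without the hearts with atrial transcripts (adjusted p = 0.806). Lmcd1, a LIM and cysteine-rich cofactor that represses GATA6 in mouse (chromosome 4, 145393145 to 145452046, plus strand), stood at 57.3, 53.3, 51.6, 52.3 and 48.3 FPKM in MaR1 hearts. In vehicle hearts Lmcd1 stood at 61.4, 48.3, 57.6, 54.3 and 52.0 FPKM. Its values overlapped too, and its interval was the narrowest of the 10, from -0.23 to 0.12 around -0.05. The Lmcd1 estimate was -0.01 without RB030 and -0.10 without RB031, and -0.22 without the hearts with atrial transcripts (adjusted p = 0.715).

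The actins showed 2 different patterns over animals. Acta1, the skeletal actin that rodent hearts re-express under load (chromosome 19, 51883715 to 51886742, minus strand), stood at 1648, 989, 983, 1519 and 1116 FPKM in MaR1 hearts, and at 1998, 842, 882, 1493 and 1441 FPKM in vehicle hearts. High and low hearts occurred in both groups: RB035 and RB038 with MaR1 and RB030, RB033 and RB034 with vehicle were at 1441 FPKM or more, and the other 5 at 1116 FPKM or less. All high hearts except RB030 carried atrial transcripts, and of the low hearts RB031 alone did. The part of atrial transcripts in this split was not tested. The log2 fold change was -0.05 ± 0.26 (interval -0.61 to 0.52). Its sign turned, to between 0.0014 and 0.12, without RB030, RB033, RB034, RB036 or RB037, and the estimate was -0.37 (adjusted p = 0.825) without the hearts with atrial transcripts.

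Actc1 (chromosome 3, 100811987 to 100817523, minus strand) stood at 4375, 6717, 5988, 6335 and 7212 FPKM in MaR1 hearts and at 7804, 6262, 6282, 5200.4 and 5806 FPKM in vehicle hearts. Its lowest heart was RB035, where Acta1 was second highest, and its highest was RB030, where Acta1 was highest too. The log2 fold change was -0.04 ± 0.17, with its sign turned without RB030 or RB035. Acta1 made up 17.4 ± 6.14% of the sum of both actins in MaR1 hearts and 17.3 ± 4.89% in vehicle hearts, from 11.9% in RB031 to 27.4% in RB035. The actin genes share nearly identical coding sequence, and the sources used here do not say how reads that fit several of them were counted, so the split between Acta1 and Actc1 is uncertain.

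Nmrk2 encodes a muscle kinase that turns nicotinamide riboside into a precursor of NAD (chromosome 7, 8514927 to 8517922, plus strand). It stood at 14.9, 22.4, 22.7, 27.6 and 32.6 FPKM in MaR1 hearts, and at 33.2, 21.0, 29.2, 22.2 and 30.9 FPKM in vehicle hearts. RB035 was lowest and RB030 highest, and the other 4 hearts of each group covered nearly the same range. The log2 fold change was -0.20 ± 0.20 (interval -0.64 to 0.24). It was -0.05 without RB035 and -0.32 without RB039. Without the hearts with atrial transcripts Nmrk2 was at -0.28, Xirp2 at -0.22, Csrp3 at -0.13 and Actc1 at -0.08, none past the test.

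**Figure D2:**
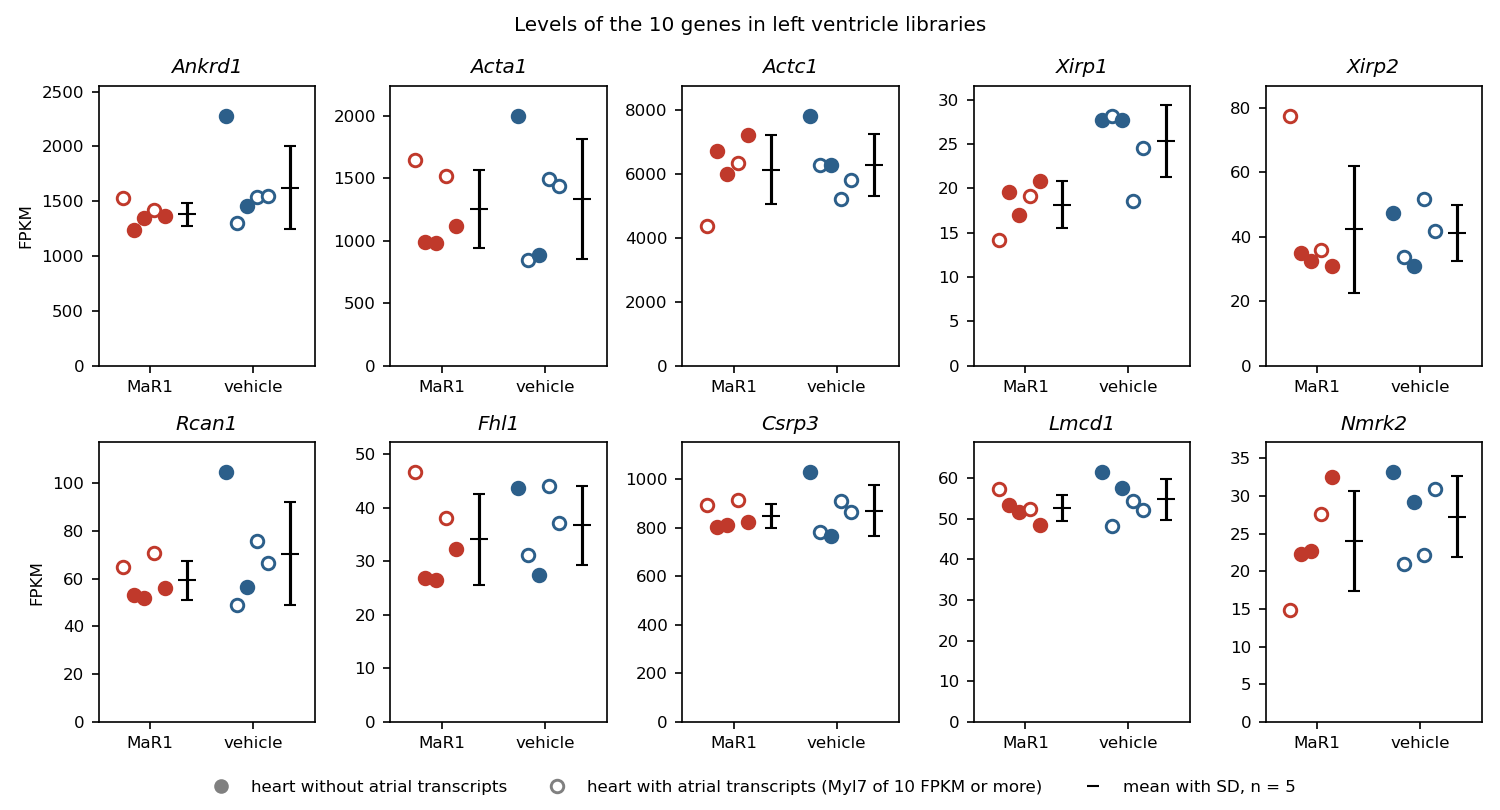
FPKM of each gene in the left ventricle libraries of MaR1 rats (left) and vehicle rats (right), 1 point per animal in the order of animal numbers; open points are the 5 hearts with atrial transcripts (Myl7 of 10 FPKM or more) and bars are the mean with SD, n = 5. The groups overlap in every panel; Xirp1 overlaps through 1 vehicle heart at 18.6 FPKM, and RB030, the first vehicle point, is highest in Ankrd1, Acta1, Actc1, Rcan1, Csrp3, Lmcd1 and Nmrk2.

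The comparison with the kidney gives the level of each gene in both organs. All 10 were higher in heart and passed the test, where 41% of 12984 genes were called higher in heart. The 10 were chosen as genes of heart muscle, so their direction was largely set by that choice and is a description. No heart library overlapped a kidney library in FPKM for any of the 10. As a share of assigned fragments Rcan1 did overlap: heart RB031 held 5911 of 28063576 and kidney RB032 held 6769 of 23353561. The share of all genes without overlap between the organs in FPKM was not computed, and 10983 of the 12984 genes were called in either direction. The ratio of mean FPKM, heart over kidney, was 1.89 for Rcan1 (64.9 and 34.4 FPKM), 3.78 for Lmcd1 (53.6 and 14.2 FPKM) and 7.51 for Fhl1 (35.4 and 4.71 FPKM). These 3 were the only members with more than 1 FPKM in kidney on average, and the others passed the filter through the heart alone. Xirp1 was 231-fold, Csrp3 1556-fold, Ankrd1 1851-fold and Acta1 4182-fold higher in heart. Kidney reads of the others were scarce: Actc1 had 33 fragments over all 10 kidneys, 17 of them in 1 vehicle kidney, and Xirp2 had 4, so their ratios of 68265 and 30917 rest on few fragments. Nmrk2 had 0 fragments in 10 of 10 kidneys and was at least 152-fold higher in heart, taking 3 fragments per kidney library as the floor.

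Several relatives of these genes took the opposite place. Nmrk1, the other riboside kinase, averaged 0.932 ± 0.222 FPKM in heart and 11.8 ± 3.08 FPKM in kidney (SD, n = 10 each), and Csrp2 averaged 2.87 ± 1.58 and 14.4 ± 1.64 FPKM in the same order. The cytoplasmic actins were also called lower in heart, Actb at 591 ± 101 FPKM against 739 ± 47.4 FPKM in kidney and Actg1 at 191 ± 40.6 against 337 ± 19.0 FPKM. So was Rcan3, at 4.15 ± 0.698 in heart against 5.69 ± 0.715 FPKM in kidney. Of the 12 paralogues tested, 7 were called higher in heart and 5 lower, beside 5326 called higher and 5657 called lower of all 12984 genes, so this split is a description. Fhl2 (610 ± 154 and 18.9 ± 6.23 FPKM, heart then kidney), Rcan2 (105 ± 23.5 and 14.5 ± 2.31 FPKM), Ankrd23 (36.1 ± 22.7 and 0.193 ± 0.0739 FPKM) and Acta2 (86.0 ± 24.3 and 21.5 ± 8.40 FPKM) were among the higher. Fhl3 (12.1 ± 1.77 and 2.02 ± 0.589 FPKM), Csrp1 (114 ± 18.7 and 75.6 ± 15.5 FPKM) and Actg2 (11.2 ± 7.22 and 1.89 ± 3.34 FPKM) completed them. Ankrd2 (0.186 ± 0.130 and 0.0538 ± 0.0757 FPKM) and Fhl5 (0.491 ± 0.282 and 0.200 ± 0.0810 FPKM) were under the filter of a mean of 1 FPKM. Fhl2 and Rcan2 thus had more transcript per length in these hearts than Fhl1 and Rcan1.

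**Figure D3:**
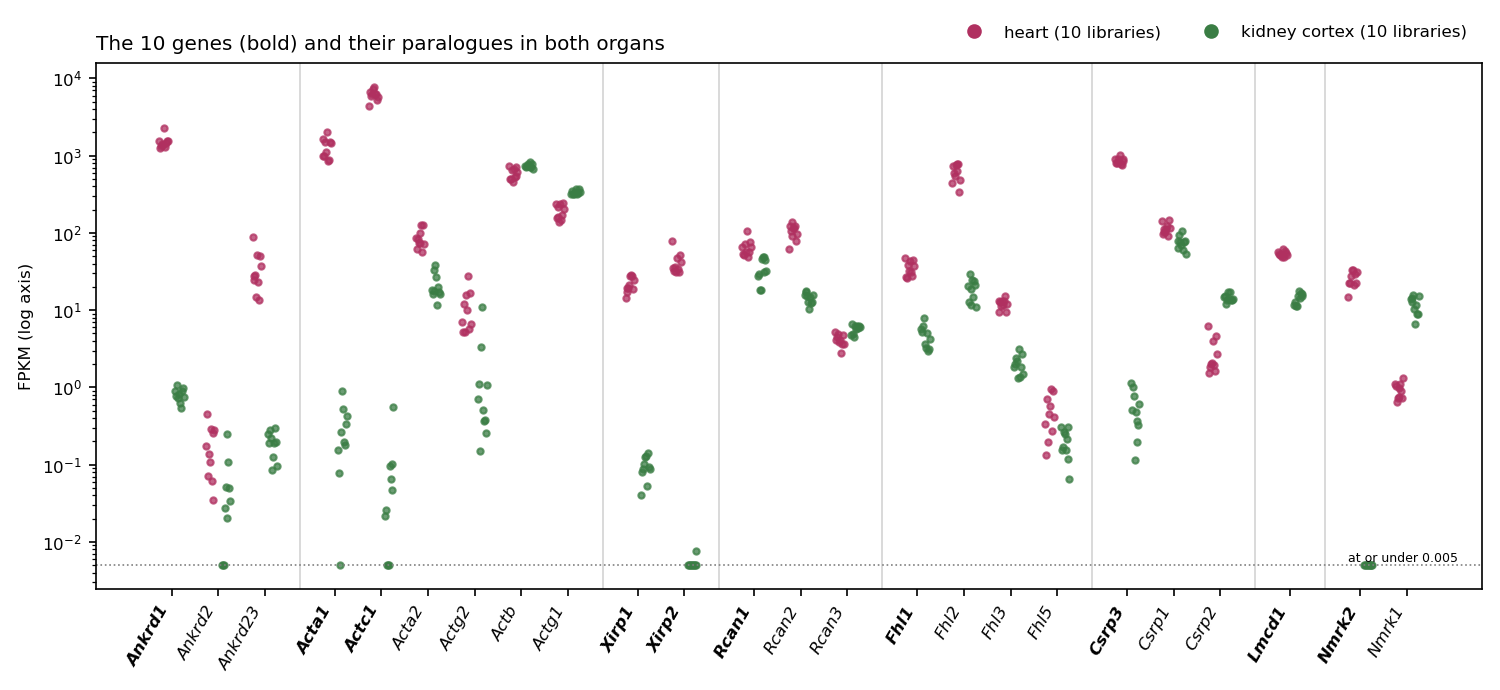
FPKM on a log axis of the 10 genes (bold) and their paralogues in 10 heart libraries (left of each pair) and 10 kidney cortex libraries (right), 1 point per library; values at or under 0.005 FPKM are drawn on the dotted line. Each bold gene is higher in heart without overlap in FPKM, least so for Rcan1 (lowest heart 49.1, highest kidney 48.8 FPKM), while Nmrk1 and Csrp2 are higher in kidney. As a share of assigned fragments Rcan1 overlapped between the organs. The share of all genes without overlap between the organs was not computed.

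In the kidney, where 3 of the 10 passed the filter, none was called (0% of 12446 genes were), though all 3 had an unadjusted p under 0.05, as did 840 of all genes (6.75%); limma voom called 0. Rcan1 stood at 27.6, 29.3, 18.3, 18.2 and 45.3 FPKM in MaR1 kidneys RB035 to RB039, and at 48.5, 31.0, 48.8, 45.2 and 31.9 FPKM in vehicle kidneys RB030 to RB034. The MaR1 kidneys lay below all vehicle kidneys except RB039, at -0.61 ± 0.24 on the log2 scale (adjusted p = 0.715). Fhl1 went the other way, at 5.68, 5.14, 6.23, 7.85 and 3.63 FPKM in MaR1 kidneys and 3.23, 5.07, 2.94, 3.10 and 4.26 FPKM in vehicle kidneys (0.55 ± 0.19, adjusted p = 0.680), again with RB039 as the exception. Lmcd1 stood at 11.8, 12.8, 11.2, 11.2 and 15.1 FPKM in MaR1 kidneys and 17.6, 14.3, 16.6, 16.2 and 15.2 FPKM in vehicle kidneys (-0.36 ± 0.09, adjusted p = 0.588), and only RB039 reached the vehicle range. The groups overlapped in all 3, where 1.23% of the genes tested did not overlap. Kidney RB039 also had the highest adipocyte marker sum, 383 FPKM. Those markers, 5 of 5 found, summed to 107 ± 155 FPKM in MaR1 kidneys and 17.2 ± 5.82 FPKM in vehicle kidneys (exact permutation p = 0.00794, the smallest possible; adjusted p = 0.0794 over 10 measures), and smooth muscle markers to 103 ± 26.2 and 75.3 ± 19.0 FPKM in the same order (exact permutation p = 0.103); their part in the 3 genes was not tested. Of the genes under the filter, Actc1 had 1, 1, 0, 0 and 0 fragments in MaR1 kidneys RB035 to RB039, and 5, 3, 4, 2 and 17 fragments in vehicle kidneys RB030 to RB034. The vehicle kidneys were all higher, by few fragments in 4 of the 5. Without the filter the log2 fold change of Actc1 was -0.35 ± 0.16 (adjusted p = 0.842), and with the animal as block its adjusted p was 0.675. Ventricular marker sums in the same kidneys were 1.29 ± 0.362 FPKM with MaR1 and 1.21 ± 0.275 FPKM with vehicle.

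Whether the response to MaR1 differs between the organs was tested as an interaction, the response in heart minus that in kidney. It called 0 of 12984 genes (0%), and 0 of the 10, with limma; voom called 0 too. An unadjusted p under 0.05 was seen for 714 of all genes (5.5%) and for 3 of the 10. Fhl1 differed by -0.66 ± 0.27 (adjusted p = 0.856), Xirp1 by -0.43 ± 0.16 (adjusted p = 0.800) and Lmcd1 by 0.30 ± 0.12 (adjusted p = 0.825). For Fhl1 and Lmcd1 the heart estimates were -0.11 and -0.05, so most of the difference stood in the kidney. Xirp1 passed the filter through the heart alone. Its kidneys held 9 to 25 fragments with MaR1 and 12 to 32 with vehicle, values at which a pseudocount of 0.5 holds a kidney response near 0, so this interaction restates the heart estimate. It was -0.38 (adjusted p = 0.963) with a pseudocount of 0.1 and -0.25 ± 0.48 (adjusted p = 0.999) with limma voom. Actc1 depended on the scale the other way, at 0.31 ± 0.22 (adjusted p = 0.980) on the main scale, 1.03 ± 0.39 (adjusted p = 0.823) with a pseudocount of 0.1 and 2.61 ± 0.72 (adjusted p = 0.797) with limma voom. Which of the scarce kidney genes stood out thus depended on the pseudocount, and none passed on any scale.

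Animals of both groups differed in ways that several of the genes shared. Over the 10 hearts, 13 of the 45 pairs among the genes correlated past an adjusted p of 0.05, all positively. These 13 pairs reached an r of 0.72 or more (28.9% of the 45), as did 5.52% of all pairs among the 12237 genes tested, and the median r was 0.45 over the 45 pairs and 0.01 over all gene pairs. Genes of one tissue are not independent, so these shares are a description. Acta1, Csrp3, Rcan1, Ankrd1 and Fhl1 formed the core: 9 of the 10 pairs among them were called, the exception being Ankrd1 with Fhl1 (r = 0.64, permutation adjusted p = 0.0550). The place of Ankrd1 rested on heart RB030: without it no pair of Ankrd1 passed, and r was 0.79 with Rcan1 (exact permutation adjusted p = 0.0673), 0.72 with Acta1 (adjusted p = 0.105), 0.62 with Csrp3 (adjusted p = 0.166) and 0.52 with Lmcd1 (adjusted p = 0.231). The 6 pairs among Acta1, Csrp3, Rcan1 and Fhl1 all passed without RB030. Xirp2 joined through Fhl1 and Acta1, and Lmcd1 through Ankrd1. Nmrk2 and Actc1 formed a pair apart from these.

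**Figure D4:**
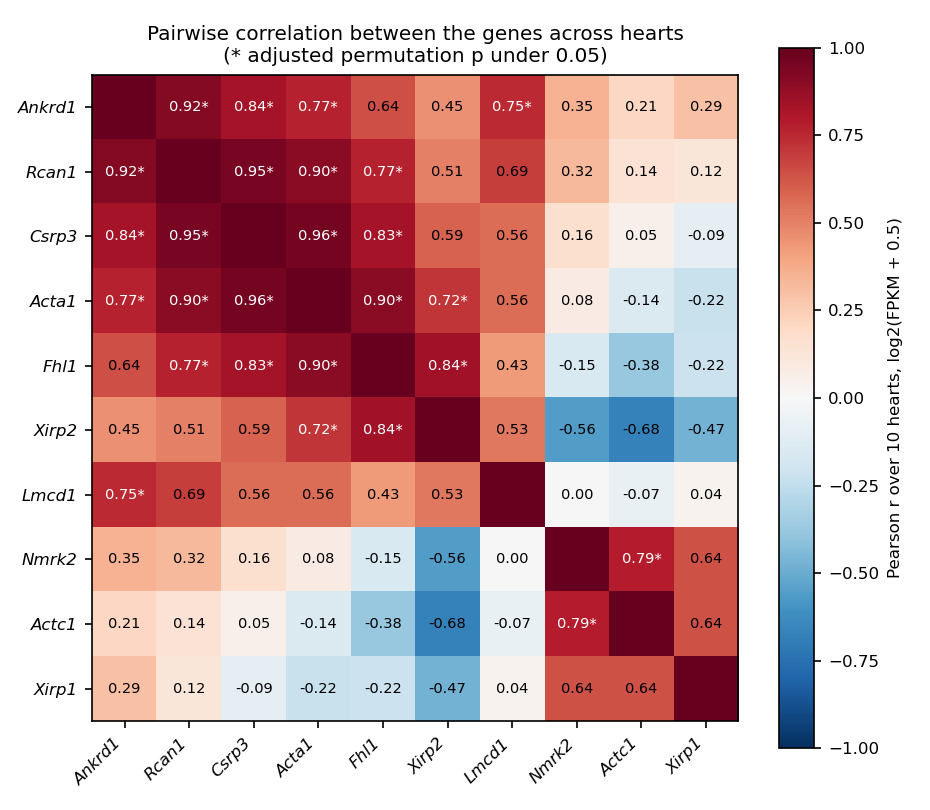
Pearson r of log2(FPKM + 0.5) over the 10 hearts for each pair of genes; stars mark an adjusted permutation p under 0.05 over the 45 pairs. The upper left block of Ankrd1, Rcan1, Csrp3, Acta1 and Fhl1 runs from 0.64 to 0.96, and Actc1, Nmrk2 and Xirp1 correlate with each other at 0.64 to 0.79.

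Acta1 and Csrp3 had the highest r, 0.96 (permutation p = 3.0e-05, adjusted p = 0.00135; Spearman rho 0.94, p = 0.00018, adjusted p = 0.00810). It was 0.96 after leaving out the 2 hearts farthest from the median of Acta1, RB030 and RB031, and 0.96 after subtracting treatment group means. Rcan1 with Csrp3 reached 0.95 (permutation p = 0.00016, adjusted p = 0.00304; rho 0.84, p = 0.00394, adjusted p = 0.0443), and 0.87 without the 2 farthest hearts. Ankrd1 with Rcan1 reached 0.92 (permutation p = 0.00058, adjusted p = 0.00522; rho 0.87, p = 0.00219, adjusted p = 0.0443), and 0.81 without RB030 and RB036. Acta1 with Fhl1 reached 0.90 (permutation p = 0.00116, adjusted p = 0.00870; rho 0.83, p = 0.00492, adjusted p = 0.0443), and 0.96 without the 2. These relations held their sign with any 1 heart left out, from 0.79 for Ankrd1 with Rcan1 to 0.99 for Rcan1 with Csrp3. Xirp2 with Fhl1 reached 0.84 (permutation p = 0.00025, adjusted p = 0.00304; rho 0.81, p = 0.00699, adjusted p = 0.0524), and 0.81 without the 2 farthest.

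The correlations in the core were as large once atrial transcripts were allowed for, but few of them still passed. After the means of hearts with and without them were subtracted, r was 0.96 for Acta1 with Csrp3, 0.93 for Acta1 with Fhl1, 0.93 for Ankrd1 with Rcan1 and 0.96 for Rcan1 with Csrp3. Only the first 2 of these, and 2 of all 45 pairs, passed with those means subtracted (exact permutation adjusted p = 0.0406 for both). The test with treatment means subtracted had the same number of rearrangements and called 14 pairs. Within either set of 5 hearts, and within the 5 hearts on either side of the Acta1 gap, too few libraries remained for a correlation. The number of pairs called was 5 with Spearman's rho, 3 without the 2 farthest hearts of each pair, 14 with treatment means subtracted and 9 without RB030, 1 of these 9 negative. The 14 included a negative pair, Xirp1 with Xirp2, at -0.75 (exact permutation adjusted p = 0.0464). Without that subtraction this pair was at -0.47 over all hearts (permutation adjusted p = 0.295) and at 0.12 without RB031 and RB035.

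Actc1, Nmrk2 and Xirp1 varied apart from the core. Actc1 with Nmrk2 reached 0.79 (permutation p = 0.00757, adjusted p = 0.0310; rho 0.67, p = 0.0395, adjusted p = 0.126), but 0.37 without RB030 and RB035, so the relation rests on those hearts. Actc1 with Xirp1 reached 0.64 (permutation adjusted p = 0.115) and 0.86 with treatment means subtracted (adjusted p = 0.00688), but 0.13 without the same 2 hearts. Actc1 with Xirp2 was the most negative pair over all hearts without any subtraction, at -0.68 (permutation p = 0.0362, adjusted p = 0.102; rho -0.47, p = 0.180, adjusted p = 0.369), and -0.82 without the 2 farthest hearts. Without RB030 alone it was -0.94 and passed (exact permutation adjusted p = 0.0168). Acta1 with Actc1, the 2 sarcomeric actins, gave -0.14 over all hearts (permutation adjusted p = 0.831), -0.62 without RB030 (exact permutation adjusted p = 0.160) and -0.64 without RB030 and RB031, so the value depends on RB030.

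Other measures of the hearts moved with these patterns. Of 40 relations between the 10 genes and 4 measures, 16 passed. The share of all genes that relate as closely to these measures was not computed, so this count is a description and not a trait of the 10. Nppb, the gene of brain natriuretic peptide, which stretched myocytes secrete, stood at 247 ± 86.5 FPKM in MaR1 hearts and 301 ± 106 FPKM in vehicle hearts. It followed Csrp3 (r = 0.87, permutation p = 0.00128, adjusted p = 0.0128; rho 0.83, p = 0.00470, adjusted p = 0.0277), Acta1 (0.86, adjusted p = 0.0149), Rcan1 (0.86, adjusted p = 0.0128), Fhl1 (0.77, adjusted p = 0.0358) and Ankrd1 (0.74, adjusted p = 0.0215). Leaving out RB030 and RB039, the hearts farthest in Nppb, gave 0.96 for Csrp3 and Acta1 and 0.78 for Ankrd1. The remaining members did not pass: Lmcd1 (0.65, permutation adjusted p = 0.0864), Xirp2 (0.64, adjusted p = 0.0851), Actc1 (-0.22), Xirp1 (-0.09) and Nmrk2 (-0.0034). Nppb is itself used as a marker of load and encodes no structural protein. It stood at 317, 353, 188, 348 and 318 FPKM in the hearts with atrial transcripts (RB035, RB038, RB031, RB033 and RB034). In the remaining hearts it ran from 144 to 224 FPKM, apart from RB030 at 444 FPKM. The parts of load and of atrial transcripts in these relations were not tested.

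The sum of transcripts from the mitochondrial genome ran the other way. It was 309933 ± 55491 FPKM in MaR1 hearts and 327084 ± 76481 FPKM in vehicle hearts, or 27.5 ± 2.93% and 28.7 ± 4.38% of fragments. Its r was -0.87 with Acta1 (permutation p = 0.00249, adjusted p = 0.0149; rho -0.83, p = 0.00485, adjusted p = 0.0277), and -0.92 without RB033 and RB038. With Csrp3 it was -0.82 (permutation adjusted p = 0.0149), with Fhl1 -0.82 (adjusted p = 0.0215) and with Rcan1 -0.71 (adjusted p = 0.0394). Xirp2 passed too, at -0.70 (permutation adjusted p = 0.0431). Ankrd1 of the core did not pass (-0.45, permutation adjusted p = 0.276), nor did Lmcd1 (-0.40), Xirp1 (0.50), Actc1 (0.38) and Nmrk2 (0.19). The part of the mitochondrial sum in the relations among the genes was not tested.

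**Figure D5:**
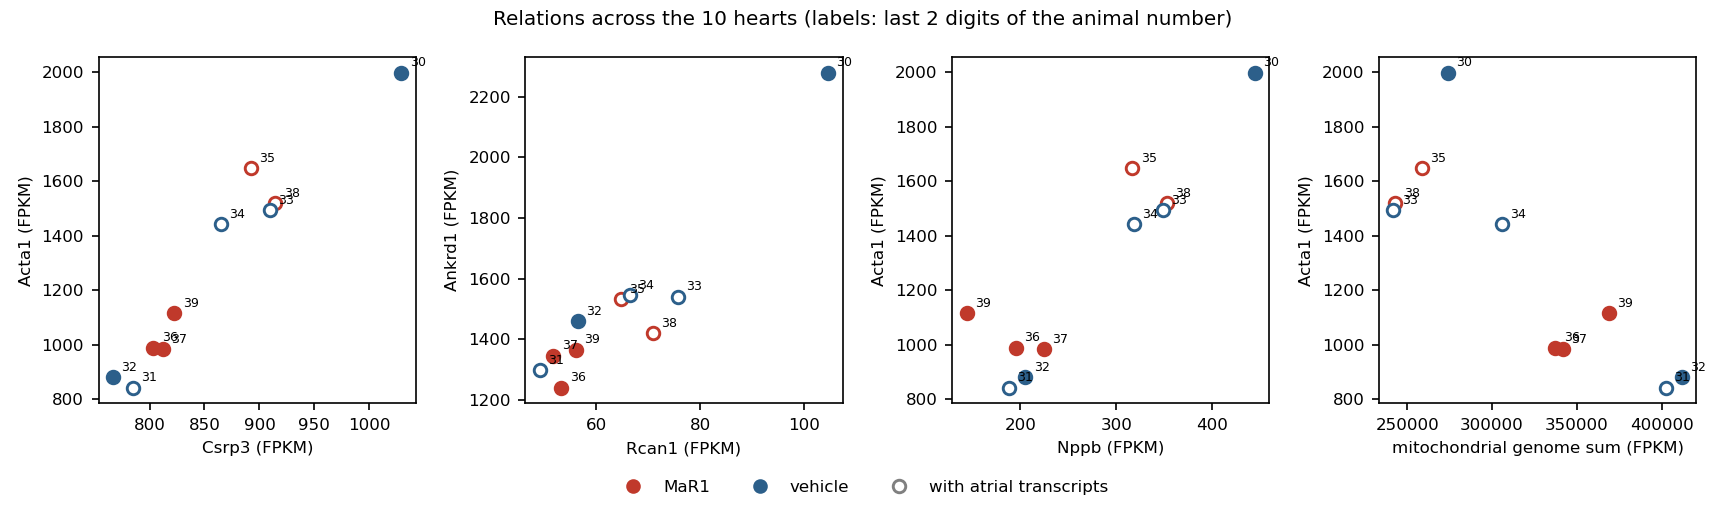
FPKM of Acta1 or Ankrd1 against Csrp3, Rcan1, Nppb and the summed mitochondrial genome transcripts, 1 point per heart (red MaR1, blue vehicle, open with atrial transcripts), labelled with the last digits of the animal number. Acta1 follows Csrp3 and Nppb upward and the mitochondrial sum downward, and MaR1 and vehicle hearts mix along each relation. RB030 is at the top of every panel and at the far right of the first 3.

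Sums of cell type markers moved with genes of both kinds. Fibroblast markers, 6 of 6 found, summed to 877 ± 445 FPKM in MaR1 hearts and 867 ± 220 FPKM in vehicle hearts, with the highest sums in RB035 (1649 FPKM) and RB033 (1180.1 FPKM). That sum followed Xirp2 (r = 0.90, permutation p = 0.00113, adjusted p = 0.0128; rho 0.84, p = 0.00357, adjusted p = 0.0277) and opposed Actc1 (r = -0.86, permutation p = 0.00173, adjusted p = 0.0138; rho -0.76, p = 0.0152, adjusted p = 0.0506). Without RB033 and RB035, r was 0.59 for Xirp2 and -0.48 for Actc1. The ventricular marker sum was a mirror image, at -0.87 with Xirp2 (permutation adjusted p = 0.0128), -0.82 with Fhl1 (adjusted p = 0.0187) and 0.78 with Actc1 (adjusted p = 0.0215). Without the same hearts these were -0.62, -0.66 and 0.30. The ventricular sum was at -0.70 with Acta1 (permutation adjusted p = 0.0600), and the fibroblast sum at 0.77 with Fhl1 (adjusted p = 0.0215). Both hearts carried atrial transcripts, and the part of cell makeup in these levels was not tested.

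The genes most like 4 of the members over the 10 hearts, after subtracting treatment means, were read from all 12237 genes tested. For Acta1 these were Rangap1 (r = 0.98), Unc45a, a chaperone that folds myosin (0.98), Anxa5 (0.98), Ptafr, the receptor of platelet-activating factor (0.96), and its fellow member Csrp3 (0.96). For Ankrd1 they were Sla (0.97), Coq10b (0.97), Hmox1, the stress-induced haem oxygenase (0.96), Trim15 (0.95) and Sbno2 (0.94). Hmox1 averaged 24.0 FPKM and reached 80.6 FPKM in its highest heart. These values for Ankrd1 are given without a check that leaves out RB030, the heart on which its pairs with other members rested. Xirp1 was most like Ankrd6 (0.97), Nqo1 (0.96), Apobec2 (0.95), Tmem179 (0.95) and Adprhl1 (0.95), and Nmrk2 most like Cited4 (0.97), Rfxap (0.92), Micall1 (0.90), Kctd1 (0.90) and Emc8 (0.89). These are the highest of many values and describe these 10 hearts only.

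The pathways around the genes gave no called gene in the heart. Among Z-disc and titin-associated genes, 27 were tested and 0 passed in either direction, with 19 estimates below 0 and a median log2 fold change of -0.05 against 0.01 over all genes. The smallest p-values were those of Vcl, the adhesion protein vinculin (-0.20 ± 0.09, unadjusted p = 0.0469), Tcap, which caps titin at the Z-disc (0.29 ± 0.17, unadjusted p = 0.117), Nebl (-0.25 ± 0.17, unadjusted p = 0.167) and Synpo2l (-0.14 ± 0.11, unadjusted p = 0.225). Vcl stood at 32.7 ± 3.21 FPKM in MaR1 hearts and 37.8 ± 3.86 FPKM in vehicle hearts. Of 24 sarcomere genes, 0 passed, 17 estimates were below 0 and the median was -0.08; Myh7, the slow myosin of the fetal programme, was at -0.27 ± 0.25 (unadjusted p = 0.317), beside Myom2, Capza2 and Cfl2 at -0.31, -0.11 and -0.08. All these genes had an adjusted p of 1.00.

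Regulators upstream gave no called gene either. Of 21 tested genes of the calcineurin, NFAT and MEF2 pathway, 0 passed and the median was 0.03; Gata4, a transcription factor of cardiac growth, was at -0.18 ± 0.08 (unadjusted p = 0.0515), Nfatc1 at 0.26 ± 0.17, Hdac4 at 0.25 ± 0.17 and Mef2a at -0.09 ± 0.06. Of 25 tested genes of serum response factor, MRTF and YAP signalling, 0 passed and the median was 0.01; Lims1, an adaptor at integrin adhesions, was at -0.18 ± 0.07 (unadjusted p = 0.0253), Vgll3 at -0.23, Mrtfb at 0.14 and Yap1 at -0.08. In the list of natriuretic peptides and fetal programme genes 0 of 13 passed, 11 estimates were below 0 and the median was -0.25. There Hmox1 was at -0.56 ± 0.39, Nppa, the atrial natriuretic peptide gene, at -0.97 ± 0.81 and Mybphl, which the atrium expresses, at -1.86 ± 1.65. The atrial marker list, which shares Nppa, summed to 2186 ± 2185 FPKM in MaR1 hearts and 4416 ± 3629 FPKM in vehicle hearts (exact permutation p = 0.357), and its part in these medians was not tested. Of 16 tested genes of NAD metabolism 0 passed and the median was 0.02, with Cd38, which consumes NAD, at 0.21 ± 0.11 (unadjusted p = 0.0837), Nadk at 0.14, Sirt1 at -0.09 and Nampt at -0.14. Of 11 tested paralogues 0 passed, with a median of -0.09; Rcan3 had the smallest p (0.24 ± 0.12, unadjusted p = 0.0719), before Actg2 at -0.43, Actb at -0.13 and Actg1 at -0.15. Of 18 immediate early genes 0 passed and the median was 0.05, with Ier2 at 0.19, Nr4a3 at -0.42, Fosb at 0.29 and Btg2 at -0.16.

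None of the 10 lists of cell type markers held a called gene in the heart. The sums not given above were 280 ± 29.7 FPKM in MaR1 hearts and 261 ± 25.5 FPKM in vehicle hearts for endothelium, 84.3 ± 22.1 and 76.7 ± 18.8 FPKM for macrophages, 531 ± 301 and 572 ± 223 FPKM for red blood cells, 223 ± 36.4 and 251 ± 88.4 FPKM for smooth muscle and 323 ± 37.4 and 289 ± 22.1 FPKM for adipocytes, in the same order. Exact permutation p-values adjusted over the 14 measures ran from 0.667 to 0.923 for these 5. Against the kidney, 26 of 27 tested Z-disc genes passed as higher in heart, with Csrp2 lower, and 22 of 23 sarcomere genes, with the cytoskeletal tropomyosin gene Tpm3 lower. Both lists were chosen as muscle genes, so these counts are a description, beside 41% of all genes called higher in heart.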

How the data were processed

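The deposited table gives FPKM for 30560 genes in 20 libraries, made by the authors from poly-A RNA sequencing. Per the submitters' processing notes, fastp (version not given), HISAT2 2.0.5, StringTie 1.3.3b and featureCounts 1.5.0-p3 were used; the genome build and the strand setting are not given in the sources used here. FPKM was multiplied by gene length and divided by the smallest such product above 0 in the library, taken as 1 fragment. This returned whole fragments (tolerance 0.01) for 100% of 371175 values above 0, and 19383232 to 30342034 fragments per library. The library sizes implied by the FPKM were 19737069 to 29822708 in hearts, below the assigned fragments of each heart. In kidneys they were 20709258 to 34941948, above the assigned fragments of each kidney.

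All tests used limma 3.58.1 (R 4.3.3) on log2(FPKM + 0.5), which understates fold changes of low genes, over genes averaging 1 FPKM or more in the libraries fitted, with a variance trend, two-sided, and Benjamini-Hochberg adjustment over all genes (threshold 0.05). Each organ was fitted alone; heart minus kidney and the interaction used all 20 libraries. Single measures were compared by exact permutation (smallest p 0.00794 for 5 against 5), and correlations over hearts by 100000 permutations, or by exact enumeration within groups, in Python 3.11.15. The design named no gene to check the treatment labels. No 2 libraries were copies (over 190 pairs, chi-square divided by its degrees of freedom was 7.98 or more).

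Members and lists were chosen with earlier results of these data known. The 18 lists held 224 symbols, of which 214 were found; the rest were not analysed here. The rule for named genes took all 10 members with every heart value, at most 4 genes of smallest p per list, every paralogue, and the 5 genes most like 4 members. Kidney and heart of the same number come from the same animal by title. After subtracting group means their correlations over 12984 genes ran from -0.0170 to 0.139, with 2 of 10 above 0.1, and the fit with the animal as replicate block (statmod 1.5.0, consensus correlation 0.0621) was an alternative beside other pseudocounts (0.1, 1), filters (none, 5 FPKM), median-of-ratios scaling, voom on the recovered fragments and leaving out each animal. Steps were tested on simulated data. Start regions are from RefSeq, build GRCr8, and loci are as the deposited table gives them.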

Additional observations from a re-analysis of the deposited data

Results flagged for a closer look

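In 26 groups of 5 libraries, 2 held a value far from the others, with a gap to the nearest of over 0.710 of the group's range; chance gives about 1 in 20. Xirp2 stood at 77.4 FPKM in MaR1 heart RB035 (gap 0.898 of the range), the heart with the highest fibroblast marker sum (1649 FPKM) and the lowest ventricular marker sum (8918 FPKM) and Actc1 (4375 FPKM). Ankrd1 stood at 2278 FPKM in vehicle heart RB030 (gap 0.747 of the range), where Nppb was also highest, at 444 FPKM, and Myl7 was at 0.318 FPKM.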

How the results depend on the processing

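No member passed or lost its call under any alternative run: 0 of the 10 in heart, 0 in kidney and 0 for the interaction, and 10 of 10 for heart minus kidney. In heart, 88 of 90 estimates of the members under settings other than leaving out an animal kept their sign; with atrial transcripts as a term, a choice made after seeing the data, Acta1 was at 0.0033 and Xirp2 at 0.052. Leaving out 1 animal gave -0.19 to 0.12 for Acta1, -0.11 to 0.075 for Actc1, -0.27 to 0.061 for Xirp2 and -0.075 to 0.031 for Csrp3 in heart, and -0.0095 to 0.41 for Acta1 and -0.27 to 0.063 for Xirp2 in the interaction.

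With the animal as replicate block in 1 model of both organs, 6 kidney genes were called in place of 0, none of them a member, and Xirp1 in heart had an adjusted p of 0.347; over all its alternatives, leaving out an animal included, that p ran from 0.347 to 1.00. The block changed no other call of a member. Leaving out 1 animal gave 0 to 1 kidney genes and 0 to 3 genes of the interaction, 1 without RB036 and 3 without RB035 or RB039. A pseudocount of 0.1 gave 1 gene of the interaction. For heart minus kidney, a mean of at least 5 FPKM gave 7292 genes in place of 10983, since fewer were tested. Of the 45 pairs over hearts, 13 were called, against 5 with Spearman's rho, 3 without the 2 farthest hearts and 2 with means of hearts with and without atrial transcripts subtracted, and 9 to 15 when 1 heart was left out. In kidney, Xirp2 and Nmrk2 had 4 and 0 fragments over all libraries, so a response there was not detectable at this depth.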

Other observations

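In the kidney cortex, some genes around the members had an unadjusted p under 0.05, and none passed. Among 17 tested genes of NAD metabolism these were Bst1 (log2 fold change 0.56 ± 0.24), Nmrk1 (0.42 ± 0.19) and Nampt, which recycles nicotinamide (0.31 ± 0.11), all with estimates above 0 in MaR1 kidneys, and Nmnat3 (-0.32 ± 0.12). Gdf15, a stress-induced cytokine, was at -0.61 ± 0.26 and Actn1 at -0.41 ± 0.18. Adjusted p-values from limma were 0.680 to 0.737. These genes were chosen after their values were seen.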
